A study of Mus musculus with 9 samples.

Results

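Fc receptors bind the constant tail of antibodies and carry the presence of antigen into the cell that holds them. The 8 genes described here are the mouse receptors for IgE (Fcer1a and Fcer2a), the receptors for IgG (Fcgr1, Fcgr2b, Fcgr3 and Fcgr4), the signalling chain that several of them share (Fcer1g) and the neonatal receptor that returns IgG to the circulation (Fcgrt). They were taken by symbol from a table of 24071 named rows, and all 8 were listed and passed the filter on low counts, Fcer1a only through its control counts and Fcer2a only through its NHD13/MSI2 counts. The family was chosen by the fold change of Fcer2a, which was among the genes that rose most in NHD13/MSI2 cells, so the values of Fcer2a are given as a description, without a test.

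The samples were LSKs, the Lineage-low Sca1+ Kit+ fraction of bone marrow that holds the hematopoietic stem and progenitor cells (HSPCs), and RNA-seq counts were available for 9 libraries. Marrow from C57BL/6 donors was placed into lethally irradiated congenic CD45.1 recipients, and donor CD45.2 LSKs were sorted after 3 months of doxycycline, at a labelled age of 4 months. The 3 control libraries came from marrow without the disease transgene, the 2 NHD13 libraries from marrow with a Vav-driven NUP98-HOXD13 transgene, which models myelodysplastic syndrome, and the 4 NHD13/MSI2 libraries from marrow that also carried a doxycycline-inducible MSI2 allele at Col1A1 with a ROSA26 rtTA driver. All 3 groups, controls included, shared irradiated hosts and doxycycline. The lineage antibodies were against Gr1, B220, CD3, CD4, CD8 and Ter119, so cells with Mac1 alone were not gated out by them.

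The libraries held 19242153 to 23013493 counts in named genes. Hoxd13 had 0 counts in the 3 control libraries and 13 to 25 in the other 6. Msi2, counted at the mouse gene, was at 88.0, 77.1, 82.8 and 241 CPM (counts scaled to a common library size) in NHD13/MSI2 against 139 and 111 in NHD13. It was thus below both NHD13 libraries in 3 of the 4 NHD13/MSI2 libraries and above them in replicate 4, and whether transgene reads are counted at that gene is not given in the sources used here. NHD13/MSI2 therefore names 4 libraries by their label throughout. NHD13/MSI2 replicate 4 had the lowest scaling factor, 0.785 against 0.969 to 1.09 elsewhere, and control replicates 1 and 3 held almost no counts of Y-linked genes while the remaining libraries did. The library name of control replicate 1 carries the word Bulk, and those of controls 2 and 3 carry MPP_HSC. All 12 of the HSPC markers examined were detected in each group.

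By background, the receptors divide into those that activate and those that restrain. The alpha chain encoded by Fcer1a binds IgE with high affinity and is typical of mast cells and basophils, where it sits with the beta chain Ms4a2 and the gamma chain Fcer1g. Fcgr1, Fcgr3 and Fcgr4 also signal through Fcer1g, whose cytoplasmic tyrosine motif (ITAM) recruits the kinase Syk after phosphorylation by Src-family kinases such as Lyn. Fcgr2b carries an inhibitory motif (ITIM) of its own and recruits the phosphatase SHIP1, encoded by Inpp5d. Fcer2a encodes CD23, a lectin-type IgE receptor unrelated in structure to the rest, known chiefly from mature B cells, and Fcgrt pairs with beta-2 microglobulin (B2m).

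Where these genes lie bears on how their reads were assigned. On GRCm38, a later build than the mm9 named in the submitters' processing notes, Fcgr2b (chr1:170958617-170976547, minus strand), Fcgr4 (chr1:171018920-171029761, plus strand), Fcgr3 (chr1:171051174-171064935, minus strand) and Fcer1g (chr1:171229572-171234365, minus strand) span 275.7 kb. Fcer1a (chr1:173221284-173227214, minus strand) stands 1986.9 kb further along. Fcer2a is at chr8:3681737-3694175 on the minus strand, Fcgr1 at chr3:96282909-96293969 on the minus strand and Fcgrt at chr7:45092990-45103851 on the minus strand.

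Fcgr2b and Fcgr3 share most of their extracellular coding sequence. Over 785 aligned coding bases the genes were 84.5% identical, against 64.4% for Fcgr4 and Fcgr3, and 166 windows of 50 bases occurred in both transcripts, which is 9.58% of the windows of Fcgr3 and 2.92% of those of Fcgr2b. A stretch of 120 coding bases is printed from the GRCm38 annotation because reads from such stretches are hard to assign. It is the most alike of the ungapped stretches with at least 4 differences, and the 4 differing bases are in capitals. The level of either gene is uncertain to the extent that such reads were split or dropped.
Fcgr2b: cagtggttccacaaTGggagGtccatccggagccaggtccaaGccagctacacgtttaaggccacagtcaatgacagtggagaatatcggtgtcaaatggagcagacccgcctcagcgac
Fcgr3: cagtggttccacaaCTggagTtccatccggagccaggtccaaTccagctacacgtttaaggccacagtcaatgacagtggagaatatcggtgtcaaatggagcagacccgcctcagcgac

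The activating and inhibitory motifs are encoded by short stretches, shown because the ratio of these receptor classes is compared further on. Capitals mark the tyrosine codons that are phosphorylated.
Fcer1g ITAM: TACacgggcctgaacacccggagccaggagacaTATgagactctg
Fcgr2b ITIM: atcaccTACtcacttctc

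Promoter sequences, from 250 bases before to 50 after the RefSeq start site on GRCm38.p6, are printed for Fcer1a and Ms4a2, whose counts fell to 0 in the same NHD13/MSI2 libraries, and for the most upstream start site of Fcer2a. Capitals mark every match, on either strand, to 5 sets of letters, each counted over 32851 mouse promoters of this length. The GATA-factor letters AGATAA were in 11.2% of these promoters. The ETS-factor letters GAGGAAG were in 13.6%. The STAT-type letters TTCNNNNGAA were in 6.95%. The TATA-box letters TATAAA were in 13.6%, and the E-box letters CAGGTG in 20.2%. Fcer1a (chr1:173227180-173227479) held 1 GATA, 1 TATA and 1 E-box match, Ms4a2 (chr19:11623670-11623969) held 3 GATA matches, and Fcer2a (chr8:3694125-3694424) held 1 TATA match, whose first base lay at -33 from the start site. A second RefSeq start site of Fcer2a, in chr8:3690812-3691111, held 1 STAT and 2 E-box matches, and counts per gene do not tell the start sites apart. All 3 printed sequences are on the minus strand, and a match is a description of the letters only.
Fcer1a promoter: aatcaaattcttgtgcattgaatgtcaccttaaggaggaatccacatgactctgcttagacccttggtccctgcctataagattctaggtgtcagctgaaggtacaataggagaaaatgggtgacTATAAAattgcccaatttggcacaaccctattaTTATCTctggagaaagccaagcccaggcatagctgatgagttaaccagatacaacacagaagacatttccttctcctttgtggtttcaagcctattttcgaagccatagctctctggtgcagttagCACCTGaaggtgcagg
Ms4a2 promoter: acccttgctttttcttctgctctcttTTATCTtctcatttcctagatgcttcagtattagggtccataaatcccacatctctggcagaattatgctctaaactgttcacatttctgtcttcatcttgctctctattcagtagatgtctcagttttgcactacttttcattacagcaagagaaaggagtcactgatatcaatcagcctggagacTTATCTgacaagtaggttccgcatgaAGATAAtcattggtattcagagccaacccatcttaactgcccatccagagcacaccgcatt
Fcer2a promoter: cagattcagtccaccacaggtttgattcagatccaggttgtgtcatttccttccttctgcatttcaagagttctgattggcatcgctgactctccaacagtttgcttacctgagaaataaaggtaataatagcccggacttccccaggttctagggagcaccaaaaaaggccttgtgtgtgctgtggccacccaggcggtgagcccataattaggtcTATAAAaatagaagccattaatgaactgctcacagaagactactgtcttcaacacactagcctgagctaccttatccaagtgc

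On a scale of CPM per kb of exon, which allows levels to be compared between genes, Fcer1g was the highest of the 8 genes in every group. By CPM alone, Fcer1g did not differ beyond its spread from Fcgr2b in NHD13/MSI2 (52.5 ± 20.9 and 56.4 ± 14.6). The same held for Fcer1g and Fcgrt in control (23.9 ± 4.65 and 22.8 ± 4.13). Per kb of exon, control LSKs were ordered Fcer1g (27.3 ± 5.32, SD, n = 3), Fcgrt (10.9 ± 1.96), Fcgr3 (3.25 ± 0.562), Fcer1a (2.74 ± 1.28), Fcgr2b (2.30 ± 0.400), Fcgr4 (0.438 ± 0.0937), Fcgr1 (0.164 ± 0.0528) and Fcer2a (0.0802 ± 0.0376). Fcgr3, Fcer1a and Fcgr2b differed from each other by less than the SD of Fcer1a. In NHD13 LSKs (n = 2) the order was Fcer1g (95.4 ± 10.1), Fcgrt (12.4 ± 2.04), Fcgr2b (11.3 ± 0.0995), Fcgr3 (5.55 ± 4.43), Fcgr4 (2.43 ± 3.04), Fcer2a (0.343 ± 0.440) and Fcgr1 (0.161 ± 0.200), and neighbours in this order from Fcgrt on were not separated beyond their spread, other than Fcgr2b and Fcgr3. In NHD13/MSI2 LSKs Fcer1a dropped out while Fcer2a stood at 9.34 ± 2.01 CPM per kb (n = 4), beside Fcgr2b at 9.75 ± 2.52 and Fcgrt at 11.8 ± 3.21, which do not differ beyond their spread. Fcgr1 and Fcgr4 were the lowest detected members there, at 0.338 ± 0.206 and 0.319 ± 0.364 CPM per kb.

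**Figure D1:**
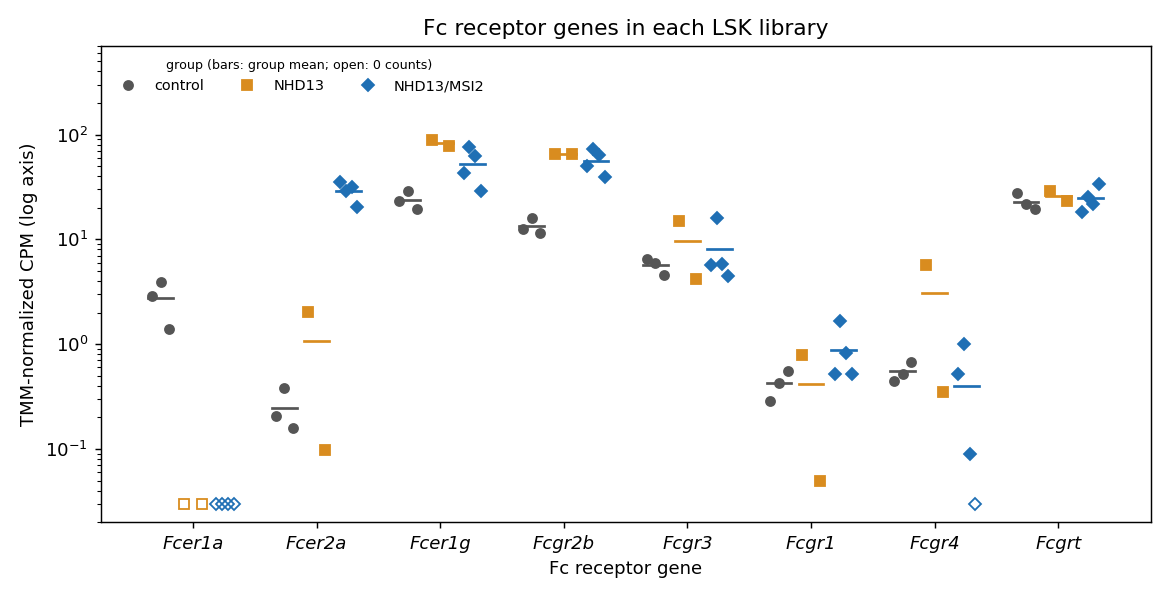
TMM-normalized CPM (log axis) of each Fc receptor gene in each library, with a point per library, a bar at the group mean and open points for 0 counts. Fcer1a is at 0 in all 6 libraries outside the controls, Fcer2a is at 20.3 to 34.9 CPM in NHD13/MSI2 and at or below 2.02 elsewhere, and Fcgr2b is higher in both transgenic groups than in control.

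Fcer2a was near the limit of detection outside the NHD13/MSI2 group. Counts were 5, 8 and 4 in the control libraries, 44 and 2 in the NHD13 libraries and 675, 582, 692 and 313 in the NHD13/MSI2 libraries. No NHD13/MSI2 library came within range of the others, and the NHD13 libraries themselves were far apart, at 2.02 and 0.0988 CPM. The group means were 0.248 ± 0.116 CPM in control, 1.06 ± 1.36 in NHD13 and 28.9 ± 6.21 in NHD13/MSI2. The fitted log2 fold change was 4.75 (SE 0.85) over NHD13 and 6.85 (SE 0.82) over control, which placed Fcer2a 56th and 50th from the top of 13355 tested genes. Without NHD13 replicate 1 the value over NHD13 became 8.13, and the value of NHD13 over control turned from 2.11 to -1.25, so the NHD13 level of Fcer2a rests on that library.

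CD23 is regarded as a marker of mature B cells, and the other B cell genes did not all follow it. Summed CPM over the 13 B cell markers in the table was 49.4 to 69.4 in control, 86.0 to 156 in NHD13 and 280 to 472 in NHD13/MSI2. Most of that sum was Cd79a and Cd79b, the signalling chains of the B cell receptor, at 184 ± 56.7 and 151 ± 16.9 CPM in NHD13/MSI2. Of the 13, Cd79b alone passed the test over NHD13 (log2 fold change 0.86, edgeR adjusted p = 0.00904), where 0.584% of all tested genes rose, and 4 passed over control, all higher, where 4.49% of all genes rose. Ebf1, Igll1 and Cr2 ran lower without passing, at mean CPM of 1.52, 1.70 and 2.21 in control and 0.257, 0.152 and 0.779 in NHD13/MSI2. The mature B cell surface gene Ms4a1 (CD20) was at 0.233 ± 0.465 CPM in NHD13/MSI2 and at 0 in both NHD13 libraries. Itgam (Mac1), an integrin chain of myeloid cells, also moved, and the part of either cell type in the Fcer2a level was not tested. In bulk RNA, fewer cells of a type and less RNA per cell cannot be told apart.

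CD23 works with a set of partner and control genes, of which 14 were listed and all 14 tested. Over NHD13, 2 rose and 0 fell in NHD13/MSI2, where 0.584% of all tested genes rose (list median log2 fold change 0.16, against -0.03 over all tested genes). Itgam, the alpha chain of an integrin that binds CD23, was at 65.7 and 132 CPM in NHD13 and 352 to 477 in NHD13/MSI2 (log2 fold change 2.07, edgeR adjusted p = 0.00351). The groups did not overlap, as for 29.9% of all tested genes. The beta chain Itgb2, of the same list, averaged 123 ± 42.5 CPM in NHD13 and 77.1 ± 8.94 in NHD13/MSI2 (-0.67, edgeR adjusted p = 0.167). Il4ra, the receptor chain for interleukin-4, which induces CD23 in B cells, was at 66.6 and 64.8 CPM in NHD13 and 194 to 243 in NHD13/MSI2 (1.68, edgeR adjusted p = 0.00132). Against control, 3 rose and 1 fell, where 4.49% of all tested genes rose and 6.55% fell. Il13ra1, which joins Il4ra in the second type of interleukin-4 receptor, went from 0.460 ± 0.358 to 34.6 ± 13.7 CPM (6.18, edgeR adjusted p = 0.000589). The integrin chain Itgb3 fell by 3.35 on the log2 scale (edgeR adjusted p = 0.00627). Il13ra1, Itgb2 and Itgb3 were named after their values were seen. The sheddase Adam10 and the transcription factor Stat6 gave edgeR adjusted p-values of 0.252 and 0.613 over NHD13.

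The chromosomal surroundings of Fcer2a were examined within 250 kb, where 33 genes are annotated, 21 were in the table and 16 were tested. Trappc5, a subunit of a vesicle tethering complex, lies on the opposite strand with its 3′ end 0.482 kb from the 3′ end of Fcer2a. Its levels were 80.3, 85.1 and 88.0 CPM in control, 73.3 and 65.6 in NHD13 and 146, 138, 166 and 139 in NHD13/MSI2. All 4 NHD13/MSI2 libraries were above the other 5. Libraries of the groups did not overlap, in either direction, for 29.9% of all tested genes over NHD13 and 35.7% over control. By edgeR, Trappc5 was the only one of the 16 past the test over NHD13 (log2 fold change 1.09, SE 0.15, edgeR adjusted p = 0.00314), where 0.584% of all tested genes rose. DESeq2 called 4 of the 16 there, all higher, and 9.63% of all genes in either direction. By edgeR 6 of the 16, all higher, had an unadjusted p under 0.05. The 16 include Clec4g, Cd209d and Cd209e, which passed the low-count filter only through their NHD13/MSI2 counts. Whether counting used strand is not given in the sources used here, and reads running past either 3′ end were not examined.

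Lectin genes lay on the other side of Fcer2a. Clec4g, whose product is a C-type lectin of endothelium, was at 0.190 to 0.204 CPM in control, 0.346 and 0.506 in NHD13 and 2.95 to 6.43 in NHD13/MSI2. The DC-SIGN relatives Cd209a, Cd209d and Cd209e averaged 9.84, 3.60 and 1.68 CPM in NHD13/MSI2, and Cd209d and Cd209e had 0 counts in all 3 control libraries. Clec4g, Cd209d and Cd209e passed the low-count filter only through their NHD13/MSI2 counts, so their tests are taken from the fit without that filter, over 17322 genes. In that fit edgeR adjusted p-values over control were 0.000478 for Clec4g, 0.00387 for Cd209d and 0.00269 for Cd209e, and over NHD13 that of Clec4g was 0.0109, outside the limit of 0.01. Cd209a, Stxbp2 and Trappc5 rose over control with the filter (edgeR adjusted p = 0.00859, 0.00482 and 0.00202), where 4.49% of all tested genes rose. With these 3 filter-dependent genes included, DESeq2 called 8 of the 16 in NHD13/MSI2 over control, all higher. It called 19.4% of all genes there, in either direction. In NHD13 over control edgeR and DESeq2 each called 0 of the 16, where edgeR called 1.03% of all tested genes and DESeq2 called 594 of 13355. Of the 16, 1 had an unadjusted p under 0.05 in NHD13 over control.

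**Figure D2:**
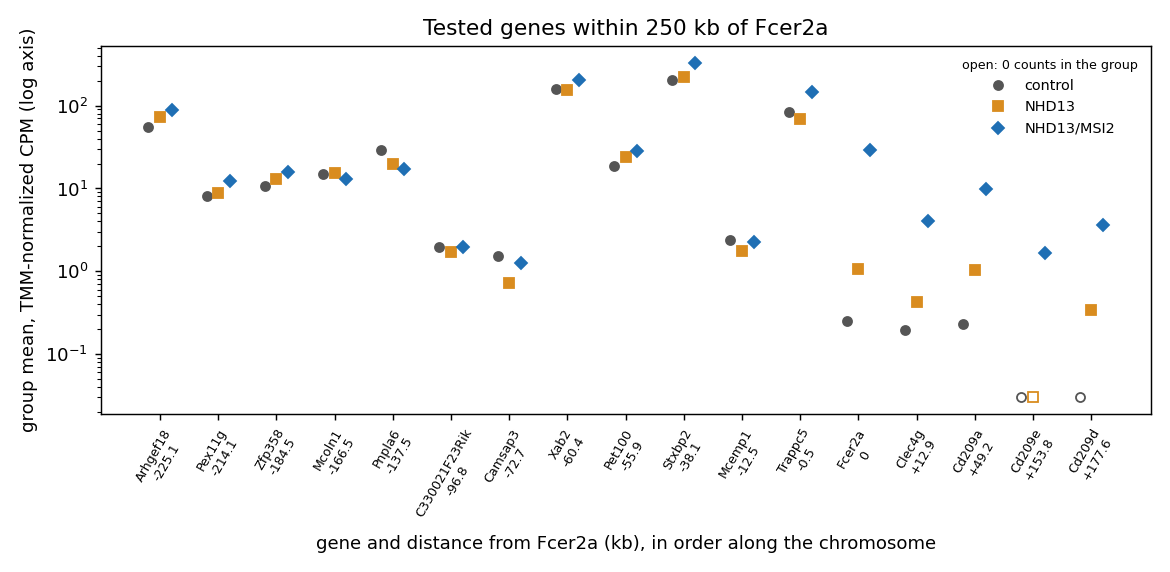
Group mean TMM-normalized CPM (log axis) of the 16 tested genes within 250 kb of Fcer2a, in chromosomal order with the distance in kb, and of Fcer2a itself. The mean is highest in NHD13/MSI2 for Fcer2a and for the 4 lectin genes to its right, and Trappc5 goes from 69.5 CPM in NHD13 to 147 in NHD13/MSI2.

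The high-affinity IgE receptor went the other way. Fcer1a had 70, 83 and 35 counts in the control libraries and 0 counts in both NHD13 and all 4 NHD13/MSI2 libraries. The 0 counts allow up to 0.136 to 0.195 CPM per library, a limit of 3 counts that covers counting error only, against 2.73 ± 1.27 CPM in control. Fcer1a was thus at least 17.2-fold lower in NHD13/MSI2 than in control and at least 19.1-fold lower in NHD13. Since Fcer1a passed the low-count filter through its control counts alone, its test is taken from the fit without that filter, where edgeR adjusted p over control was 0.00253 in NHD13/MSI2 and 0.0399, outside the limit, in NHD13. With the filter the values were 0.00479 and 0.0531 by edgeR, and the call for NHD13/MSI2 was lost without any 1 control library (edgeR adjusted p = 0.0151 to 0.0251), and with control replicate 2 as the only control it was 0.123.

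The beta chain Ms4a2 shared the loss in the NHD13/MSI2 group but not in both NHD13 libraries. It had 77, 65 and 35 counts in control, 0 and 75 in NHD13 and 0 in each NHD13/MSI2 library. Its level was at least 16.0-fold lower in NHD13/MSI2 than in control, with edgeR adjusted p = 0.0315 and DESeq2 adjusted p = 0.000162. NHD13 replicate 2 therefore held the beta chain at a control-like count beside 0 counts of the alpha chain.

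Other genes of mast cells and basophils are given beside this result. Summed CPM over the 12 markers was 48.1 to 103 in control, 26.4 to 31.9 in NHD13 and 9.48 to 19.5 in NHD13/MSI2. Cpa3, a mast cell protease, went from 28.9 ± 17.9 in control to 2.49 ± 0.606 in NHD13/MSI2 (edgeR adjusted p = 0.000857). The granule protease genes Cma1, Mcpt4, Tpsb2 and Tpsab1 were at 0 in both transgenic groups, though none exceeded a mean of 0.679 CPM in control. Of the 7 markers tested, 2 fell and 0 rose against control in NHD13/MSI2, where 6.55% of all tested genes fell and 4.49% rose, the second being Gata1, an erythroid and mast cell transcription factor. Among those that did not pass were Mcpt8, at 7.41 CPM in control and 3.69 in NHD13/MSI2, and Cd200r3, at 0.0400 and 0.592. Their part in the Fcer1a result was not tested.

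Fcgr2b, the inhibitory IgG receptor, rose in both transgenic groups. Levels were 12.6, 15.9 and 11.5 CPM in control, 65.7 and 64.9 in NHD13 and 50.5, 72.4, 63.6 and 39.3 in NHD13/MSI2. Every library of the transgenic groups was above the highest control, and these groups overlapped each other. Of all tested genes, 37.4% (NHD13) and 35.7% (NHD13/MSI2) did not overlap control, in either direction. The log2 fold change was 2.29 in NHD13 (SE 0.26, edgeR adjusted p = 0.00184) and 2.08 in NHD13/MSI2 over control (SE 0.23, edgeR adjusted p = 0.000402), comparisons that share the control libraries. Between NHD13/MSI2 and NHD13 it was -0.21 (SE 0.24, edgeR adjusted p = 0.683). The NHD13 call was lost without control replicate 1 or 3 or NHD13 replicate 2 (edgeR adjusted p = 0.0101 to 0.0152), and with control replicate 2 as the only control the p-values were 0.165 in NHD13 and 0.0504 in NHD13/MSI2.

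Besides Fcer2a and Fcer1a, 6 genes could be counted. Between NHD13/MSI2 and NHD13 edgeR and DESeq2 each called 0 of the 6, where they called 3.17% and 9.63% of all tested genes. Only 1 gene, Fcgr4, had an unadjusted p under 0.05, a limit for which no share over all genes was counted. In NHD13/MSI2 over control edgeR called 1 of the 6, Fcgr2b, where it called 11.0% of all genes. DESeq2 called 2 of the 6 there, and 19.4% of all genes. In NHD13 over control edgeR again called Fcgr2b alone, against 1.03% of all genes. DESeq2 called 2 of the 6, and 594 of all 13355 genes.

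**Figure D3:**
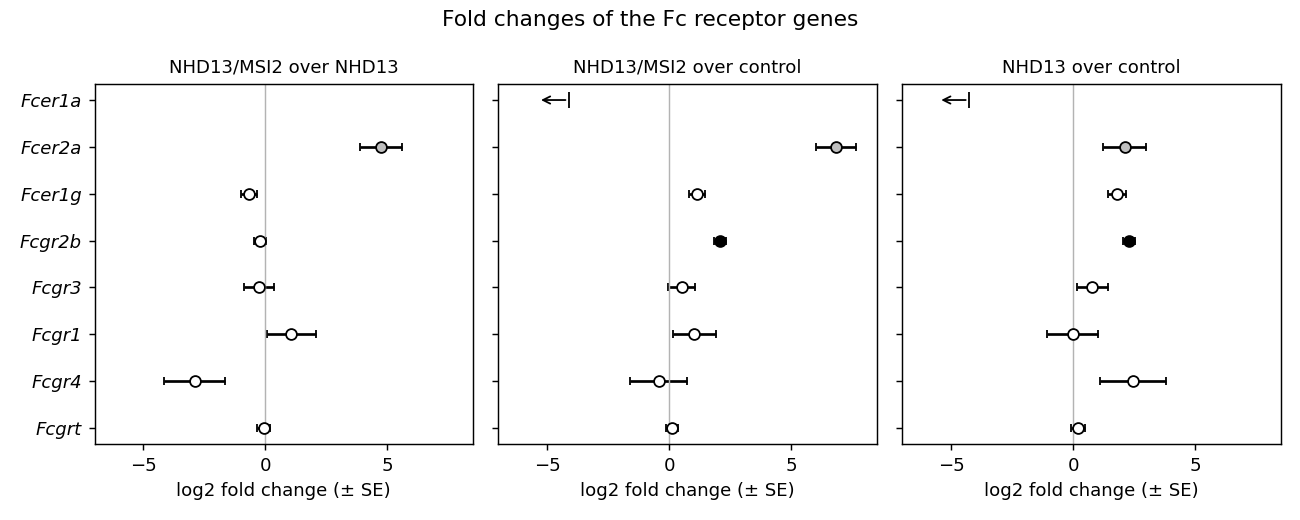
Log2 fold change with its SE (x axis) of each Fc receptor gene in the 3 comparisons. Black points passed edgeR's adjusted p of 0.01, white points did not, the grey point is Fcer2a (no test), and arrows mark Fcer1a, whose change is known only as at least 17.2-fold or 19.1-fold lower. Fcgr2b is the only black point, at 2.08 and 2.29.

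Fcer1g, the common gamma chain, was intermediate. It was at 23.2, 28.9 and 19.6 CPM in control, 89.6 and 77.2 in NHD13 and 42.6, 76.1, 62.3 and 28.9 in NHD13/MSI2. The highest control and NHD13/MSI2 replicate 4 were nearly equal, and both NHD13 libraries were above all others. The groups did not overlap in any of the 3 comparisons, where 29.9% (NHD13/MSI2 over NHD13), 35.7% (over control) and 37.4% (NHD13 over control) of all tested genes did not. The log2 fold change was 1.80 in NHD13 over control (edgeR adjusted p = 0.0303), 1.14 in NHD13/MSI2 over control (edgeR adjusted p = 0.029) and -0.67 between the transgenic groups (edgeR adjusted p = 0.287). None passed the limit of 0.01, and without NHD13/MSI2 replicate 4 the adjusted p against control was 0.00282 in NHD13/MSI2 and 0.00483 in NHD13.

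Tyrobp (DAP12), the other short ITAM adaptor of myeloid cells, separated from Fcer1g. Tyrobp was at 16.6 to 32.8 CPM in control, 75.4 and 113 in NHD13 and 151 to 413 in NHD13/MSI2. It rose in NHD13/MSI2 over control (log2 fold change 3.80, edgeR adjusted p = 0.000348) and gave edgeR adjusted p = 0.0384 over NHD13. Within a library, where scaling between libraries plays no part, there were 0.824, 1.14 and 0.843 Tyrobp reads per Fcer1g read in control, 1.26 and 0.978 in NHD13 and 8.56, 5.43, 5.48 and 5.24 in NHD13/MSI2. The NHD13/MSI2 libraries stood apart from the other 5 in this ratio, which was looked at after the values of both genes were known and was not tested.

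The activating IgG receptor Fcgr3 showed no call. It was at 6.46, 5.88 and 4.56 CPM in control, 15.1 and 4.20 in NHD13 and 5.74, 16.0, 5.84 and 4.48 in NHD13/MSI2. A library in each transgenic group was high, NHD13 replicate 1 and NHD13/MSI2 replicate 2, and the rest lay in or close to the control range. The log2 fold change over control was 0.78 in NHD13 and 0.51 in NHD13/MSI2 (edgeR adjusted p = 0.739 and 0.568), and each turned negative without its high library.

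The relation of Fcgr3 to Fcgr2b within a library addresses activating against inhibitory IgG receptors without scaling between libraries. Reads were not divided by exon length, 5790 bases for Fcgr2b and 1736 for Fcgr3, so the ratio serves only to compare groups. Per kb of exon, Fcgr3 was at 3.25 ± 0.562 and Fcgr2b at 2.30 ± 0.400 CPM in control. The sequence windows that both genes share also limit this ratio. There were 1.94 to 2.71 Fcgr2b reads per Fcgr3 read in control, 4.36 and 15.5 in NHD13 and 4.52 to 10.9 in NHD13/MSI2. Each transgenic library exceeded each control. The log2 ratio of Fcgr3 to Fcgr2b was -1.24 ± 0.25 in control (SD, n = 3), -3.04 ± 1.29 in NHD13 (n = 2) and -2.97 ± 0.55 in NHD13/MSI2 (n = 4). It was lower than control by a difference of -1.73 in NHD13/MSI2 (2-sided exact permutation p = 0.0571) and -1.79 in NHD13 (exact permutation p = 0.2), each the smallest p these group sizes allow. Between the transgenic groups the difference was 0.06 (exact permutation p = 1, smallest possible 0.133), and its sign changed with the library left out.

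**Figure D4:**
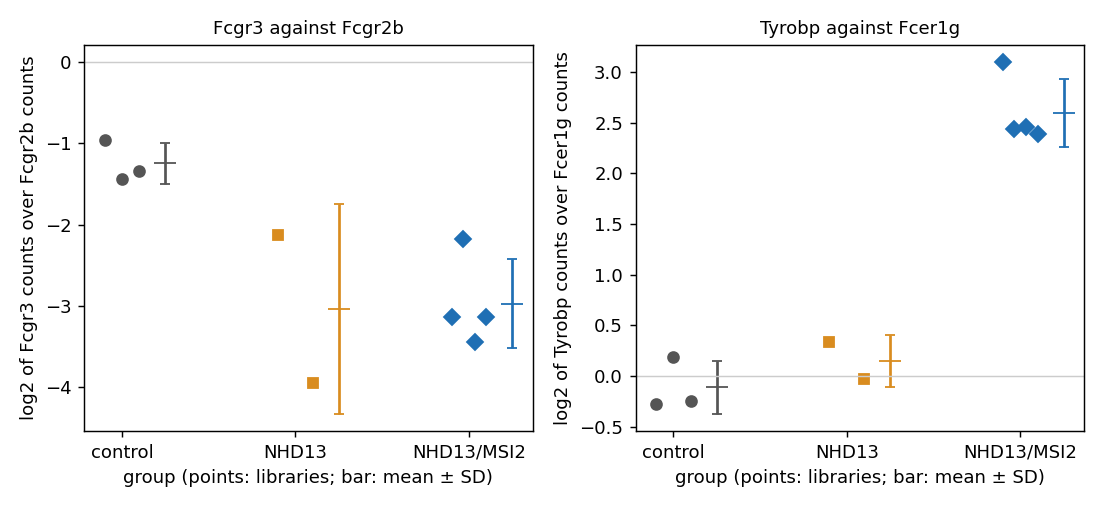
Log2 ratio of counts within each library, Fcgr3 over Fcgr2b (left) and Tyrobp over Fcer1g (right), by group, with points for libraries and bars for the mean and SD. On the left both transgenic groups lie below control, at -3.04 and -2.97 against -1.24, and on the right the 4 NHD13/MSI2 libraries lie above the other 5.

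Fcgr4 and Fcgr1, the remaining activating receptors, were low and varied between libraries. Fcgr4, a receptor of monocytes and neutrophils, had 11, 11 and 17 counts in control, 125 and 7 in NHD13 and 10, 20, 2 and 0 in NHD13/MSI2. Its NHD13 mean thus came from replicate 1, and without that library the log2 fold change of NHD13/MSI2 over NHD13 went from -2.89 (edgeR adjusted p = 0.211) to 0.25. Fcgr1, the high-affinity IgG receptor of macrophages, was at 0.286, 0.427 and 0.560 CPM in control, 0.782 and 0.0494 in NHD13 and 0.517, 1.65, 0.814 and 0.519 in NHD13/MSI2. All groups overlapped, and edgeR adjusted p-values for Fcgr1 were 0.453 to 0.998.

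NHD13 replicate 1 was the higher NHD13 library for all 7 members detected in that group. Monocyte and macrophage markers, which could accompany the IgG receptors, summed to 293 to 403 CPM in control, 3245 to 3381 in NHD13 and 6895 to 9086 in NHD13/MSI2. F13a1, a coagulation factor subunit made by monocytes, supplied most of that sum, at 31.1, 2608 and 6713 CPM on average. Csf1r, the receptor that defines the lineage, averaged 11.2, 108 and 356 CPM. All 12 of these markers were detected in every group, and their part in the Fcgr2b, Fcgr3 and Fcer1g levels was not tested.

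Fcgrt stayed in place. It was at 27.4, 21.6 and 19.4 CPM in control, 29.0 and 23.0 in NHD13 and 18.1, 25.5, 21.9 and 33.9 in NHD13/MSI2, with all groups overlapping. The log2 fold changes were -0.07 to 0.19 with edgeR adjusted p-values of 0.771 to 0.926. Its partner B2m averaged 2700 ± 120 CPM in control, 2829 ± 295 in NHD13 and 2975 ± 900 in NHD13/MSI2.

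Downstream of the receptors, 42 signalling genes were listed and all 42 were tested. Between NHD13/MSI2 and NHD13, 1 rose and 2 fell, where 0.584% of all tested genes rose and 2.58% fell, and the list median log2 fold change was 0.22 against -0.03 for all genes. In NHD13/MSI2 over control 8 rose and 4 fell, Src among the 4 through its control counts, where 4.49% and 6.55% of all genes did, and the medians were 0.28 and -0.01. In NHD13 over control edgeR called 0 of the 42, where it called 1.03% of all tested genes. Of the 42, 12 had an unadjusted p under 0.05, a limit for which no share over all genes was counted. DESeq2 called 4 of the 42, and 594 of all 13355 genes.

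The changes between the transgenic groups were in adaptors and a kinase. Lat, a membrane adaptor of T cells and mast cells, was at 107 and 127 CPM in NHD13 and 21.1 to 32.1 in NHD13/MSI2 (log2 fold change -2.22, edgeR adjusted p = 0.000698). Lcp2 (SLP-76), the scaffold that works beside Lat, was at 219 and 57.9 CPM in NHD13 and 14.6 to 21.1 in NHD13/MSI2 (-2.96, edgeR adjusted p = 0.00305), and at 207 to 225 in control. Both fell without overlap, and 29.9% of all tested genes did not overlap between these groups, in either direction. Prkcd, a protein kinase C isoform, was at 90.9 and 108 CPM in NHD13 and 247 to 339 in NHD13/MSI2 (1.57, edgeR adjusted p = 0.00132). Lat2 (NTAL), a relative of Lat in myeloid cells, mast cells and B cells, averaged 69.3, 151 and 379 CPM in control, NHD13 and NHD13/MSI2, and rose against control (2.45, edgeR adjusted p = 0.000337) with edgeR adjusted p = 0.0235 over NHD13.

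The kinases and phosphatases next to the receptors differed among themselves. Syk was at 166 ± 29.9, 142 ± 29.1 and 167 ± 20.1 CPM in control, NHD13 and NHD13/MSI2, with edgeR adjusted p-values of 0.56 to 0.987. Lyn rose from 114 ± 6.48 CPM in control to 215 ± 9.58 in NHD13/MSI2 (log2 fold change 0.92, edgeR adjusted p = 0.000835), with edgeR adjusted p = 0.0379 over NHD13. Inpp5d, the phosphatase partner of Fcgr2b, was at 304, 313 and 488 CPM on average and Ptpn6 (SHP-1) at 310, 330 and 529. Neither passed the limit against control in NHD13/MSI2 (edgeR adjusted p = 0.0475 and 0.0179). Tec and Src were named after their values were seen. Tec, a kinase of the Btk family, rose against control in NHD13/MSI2 (log2 fold change 1.45, edgeR adjusted p = 0.00125). Src, which passed the low-count filter through its control counts alone, averaged 1.25 CPM in control and 0.0129 in NHD13/MSI2, and its edgeR adjusted p over control was 0.00973 with the filter and 0.0112 without it.

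Other surface receptors also depend on the Fcer1g chain, and 7 of the 12 listed were tested. Between NHD13/MSI2 and NHD13 edgeR called 0 of the 7 and DESeq2 called 2, where they called 3.17% and 9.63% of all genes. Of the 7, 4 had an unadjusted p under 0.05, a limit for which no share over all genes was counted. Against control 2 rose and 2 fell, where 4.49% and 6.55% of all genes did. Those 4 were named after their values were seen. The shared cytokine receptor chains Csf2rb and Csf2rb2 averaged 58.1 and 12.9 CPM in control against 210 and 82.0 in NHD13/MSI2. The lectins Clec4d and Clec4e averaged 7.60 and 71.2 CPM in control against 1.11 and 8.67. Of the other Fc-binding genes, such as the Fc receptor-like family, 4 of 10 were tested, edgeR and DESeq2 each called 0 in all 3 comparisons, and 1 had an unadjusted p under 0.05 between NHD13/MSI2 and NHD13.

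The genes whose log2 CPM followed each member most closely over the 9 libraries were found among all genes with a mean of at least 50 counts, as a description. For Fcer2a these were P2rx4, an ATP-gated channel (Pearson r = 0.991), Cnn3, an actin-binding calponin (0.99), and 4922502D21Rik (0.986). For Fcer1a they were Nkg7, a granule protein gene of cytotoxic cells (0.985), Mmp2 (0.981) and Cdcp1 (0.977). Fcer1g went with Itpk1 (0.981), Surf1 (0.965) and Epha3 (0.948), and Fcgr2b with Rpl3l (0.981), F2rl1 (0.976) and Inpp5j (0.975). Among the members, Fcgr2b and Fcer1g were most alike (0.912) and Fcer1a and Fcgr2b most opposed (-0.94). The 9 points are 3 groups, so a high value mostly restates a shared order of the group levels.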

How the data were processed

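RNA-seq of sorted LSKs was analysed for 3 control, 2 NHD13 and 4 NHD13/MSI2 libraries. The authors deposited a table of read counts per gene, not normalized. The submitters' processing notes name STAR, HTSeq, DESeq and mm9, without versions. From the March genes onward the deposited symbols stood 2 rows off their counts: moving 11942 names by 2 rows raised the median count of the ribosomal protein genes from 4573 to 7116 and the highest Xist count from 0 to 21712. The moved names were used, 13 March rows were left out, and the 8 Fc receptor genes stand before that point.

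Counts were fitted over all 9 libraries with edgeR 4.0.16 (R 4.3.3, filterByExpr, TMM scaling, glmQLFit and glmQLFTest), and p-values were adjusted by Benjamini-Hochberg over 13355 genes. A gene was called at an adjusted p under 0.01, the study's limit. Counts at an unadjusted p under 0.05 have no share over all genes beside them. CPM are TMM-normalized. The procedure was tested on simulated data for NHD13/MSI2 over NHD13, where 64% of 4-fold and 7% of 2-fold changes among 13078 genes were recovered. The ratio of Fcgr3 to Fcgr2b was compared by exact permutation (scipy 1.17.1). Alternatives were DESeq2 1.42.0, other filters and scaling, fits to the groups compared, a replicate block, each library left out, and, chosen after seeing the data, the libraries with Y-linked counts only. The members and lists were chosen with earlier results of these data known. Named genes were all members, fixed partner and signalling genes, up to 4 called genes with the largest change per list in NHD13/MSI2 over NHD13, tested neighbours of Fcer2a and the 3 most alike genes per member. The labels do not say that the libraries of a group came from separate mice, so p-values measure the spread between libraries. Floors of 3 counts cover counting error only.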

Additional observations from a re-analysis of the deposited data

How the results depend on the processing

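With 2 to 4 libraries per group, 7% of simulated 2-fold changes were recovered between NHD13/MSI2 and NHD13, so changes of that size could be missed. Between NHD13/MSI2 and NHD13 the Fc receptor genes tested, 4 to 7 by setting, stayed at 0 called under all 19 alternatives, and Fcer1a, at 0 counts in both groups, could not be called there. The counts that follow include Fcer1a. Over control, 2 were called, 1 with a mean of at least 50 counts, 0 with the Y-linked-count libraries only (control replicate 2 alone then stands for the controls and is assumed to vary like the other groups), and 1 to 3 with a library left out. In NHD13 over control, 1 was called, 3 by DESeq2, 2 with only the groups compared, 2 at an adjusted p under 0.05, 0 with the Y-linked-count libraries and 0 to 2 with a library left out.

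Of the 42 signalling genes 3 were called between the transgenic groups, 14 by DESeq2, 1 with only those groups, 12 at an adjusted p under 0.05, 1 with the Y-linked-count libraries and 2 to 9 with a library left out. Over control 12 were called in NHD13/MSI2, 20 at 0.05, 7 with names as deposited, 1 with the Y-linked-count libraries and 6 to 15 with a library left out. In NHD13 over control 0 were called, 4 by DESeq2, 3 at 0.05 and 0 to 2 with a library left out. Over all genes, 423 were called between the transgenic groups, 1474 between NHD13/MSI2 and control and 138 between NHD13 and control, the order kept in the next sentence. DESeq2 gave 1286, 2589 and 594, an adjusted p under 0.05 gave 1177, 2745 and 386, the Y-linked-count libraries gave 38, 95 and 7, and leaving out a library gave 128 to 646, 647 to 2066 and 38 to 251. With only the groups compared, 30 were called between the transgenic groups and 83 between NHD13 and control.

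The replicate numbers are shared between groups, but deviations of same-numbered libraries correlated at -0.0716 to 0.194, so the numbers were not taken to pair them. A replicate block lowered the calls in NHD13/MSI2 over NHD13 from 423 to 203, moved Fcer1a against control to edgeR adjusted p = 0.0237 and Fcer1g to 0.00722, and turned 3 small log2 values, Fcgr3 between the transgenic groups to 0.16, Fcgrt in NHD13/MSI2 over control to -0.047 and Fcgr1 in NHD13 over control to 0.0061.

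Values without a call changed sign in some fits, here given as the lowest and highest log2 value with a library left out. In NHD13/MSI2 over NHD13 these were -0.87 to 0.96 for Fcgr3, -3.83 to 0.25 for Fcgr4 and -0.23 to 0.14 for Fcgrt. In NHD13/MSI2 over control they were -0.059 to 0.71 for Fcgr3 and -0.054 to 0.28 for Fcgrt, which was -0.12 by CPM without TMM factors. In NHD13 over control they were -1.25 to 3.01 for Fcer2a, -2.95 to 0.86 for Fcgr1, -0.42 to 1.41 for Fcgr3, -0.66 to 3.36 for Fcgr4 and -8.74 to 0.54 for Ms4a2. NHD13 replicate 1 gave the changed sign for Fcgr3, Fcgr4 and Fcgrt between the transgenic groups and for Fcer2a, Fcgr3, Fcgr4 and Ms4a2 in NHD13 over control. The log2 ratio of Fcgr3 to Fcgr2b between the transgenic groups, 0.06, was -0.054 with Fcgr1 and Fcgr4 added to Fcgr3, and -0.85 to 0.98 with a library left out. The causes were not tested.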

Other observations

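Of the sort markers of LSKs, neither Kit nor Ly6a passed the limit of 0.01. Kit averaged 1938 CPM in control, 1526 in NHD13 and 1141 in NHD13/MSI2 (edgeR adjusted p = 0.0561 for NHD13/MSI2 over control and 0.436 over NHD13). Ly6a, which encodes Sca1, averaged 85.8, 58.7 and 260 CPM (edgeR adjusted p = 0.0167 and 0.0221).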
